A study of Rattus norvegicus with 24 samples.

Results

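Probe sets for genes of glycolysis, gluconeogenesis, the citrate cycle and the pentose phosphate pathway were followed in kidney RNA of 24 rats. Members were chosen as all probe sets whose symbol in the platform annotation is one of 46 enzymes, carriers and regulators of these pathways. Of these symbols 40 were found, with 57 of the 15923 probe sets on the array. The other 6, Pcx, G6pc, Hk3, Pkm, Dlat and Fh, were not found under these spellings and are not analysed here, save Pcx, which the annotation lists as Pc and which is given beside the gluconeogenic members. The animals were male SHR-SP rats, a stroke-prone line of the spontaneously hypertensive rat bred for genetic hypertension, and were randomized to a diet when 11 weeks old. The groups were the high salt and fat diet (HSF, drinking water with 1% NaCl, chow holding 24.5% fat) for 2 weeks, the normal diet (ND, powdered chow and water) for 2 weeks, HSF for 8 weeks and ND for 8 weeks, with 6 animals and 6 arrays in each. Salt and fat were given together, so their separate effects cannot be told apart. There was no normotensive strain, so each comparison is between diets or times within hypertensive rats.

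Glycolysis splits glucose into pyruvate, and gluconeogenesis runs the same route backwards through a few enzymes of its own. In the kidney these routes are divided between segments: the proximal tubule makes glucose from lactate and amino acids and draws its energy mainly from oxidation in mitochondria, whereas the medullary and distal segments rely more on glycolysis. Pyruvate enters the citrate cycle through pyruvate dehydrogenase, the pentose phosphate pathway supplies NADPH and ribose, and the polyol pathway turns glucose through sorbitol into fructose.

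The deposited values are MAS5 signals, a brightness summary per probe set on a linear scale, with array medians of 68.7 to 78.7. Differences are of log2(signal + 7.2) ± SE, HSF minus ND, a scale that understates the change of weak probe sets, and signals of different probe sets are not compared as levels. A gene was represented by its brightest probe set, and calls were made at a limma adjusted p under 0.05 across the 10208 probe sets tested. Where 3 signals are listed for a group, they are its lowest, median and highest of 6 animals. The ND arrays 1 and 2 at 8 weeks stood apart at the dim end, where their 1st percentile was at signals of 2.4 and 3 while the other 22 arrays had 0.7 to 1.2. The brightest probe set reached 6529.8 to 10547 on the HSF arrays at 2 weeks, against 7299.5 to 11232 on the arrays of the other groups. Kidney markers were present: summed signals of the 15 proximal tubule genes tested were 38020 to 54918 over all arrays, and the 3 adrenal cortex genes on the array, with sums of 25 to 66, were all below the filter on low signals.

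Of the 40 genes, 36 passed the filter on low signals in the brightest probe set, and 45 of the 57 probe sets passed. Hk2, Pfkfb1, Aldoc and Eno2 did not, and 3 further probe sets are hexokinase array controls that were not tested. After 2 weeks on HSF, limma called 7 of 36 members, beside 8.62% of the 7493 genes and 8.74% of the probe sets tested. Pfkp and Pklr, both of glycolysis, rose (5.03% of all genes rose). Fbp1 of gluconeogenesis, Pfkfb2 and Eno1 of glycolysis, Sord of the polyol pathway and Idh1, a cytosolic isocitrate dehydrogenase, fell (3.59% of all genes fell). After 8 weeks 5 of 36 members were called, beside 9.49% of all genes and 9.14% of probe sets. Pfkp and Pgd rose (5.73% of all genes), and Slc37a4, Sord and Idh1 fell (3.76% of all genes). Pfkp, Sord and Idh1 were called at both times. The changes were small: the median size of a member's difference was 0.14 at 2 weeks and 0.12 at 8 weeks, against 0.12 and 0.13 for all genes, and a size of 0.5 was passed by 2 members at 2 weeks and 1 at 8 weeks.

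**Figure D1:**
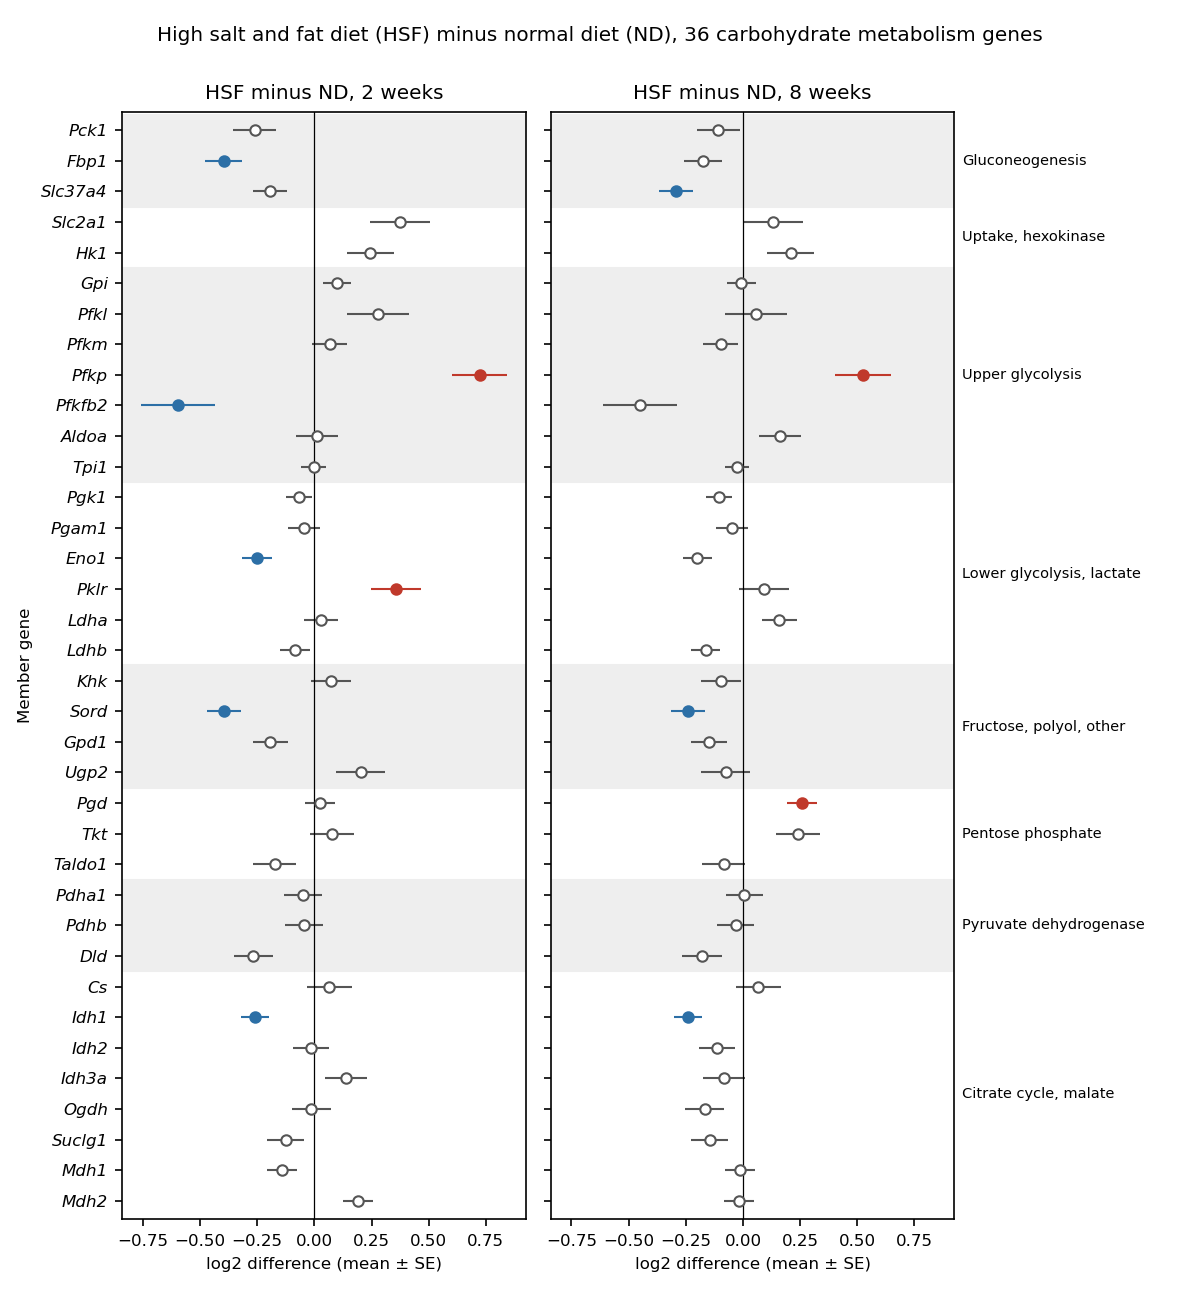
Log2 difference of signal ± SE, HSF minus ND, for the 36 member genes tested at 2 weeks (left) and 8 weeks (right), grouped by pathway; filled points passed the adjusted p of 0.05 (red higher, blue lower). Pfkp stands furthest to the right at both times, at 0.72 and 0.53, and Pfkfb2 furthest to the left, at -0.60 and -0.45.

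The median member difference was -0.01 at 2 weeks, beside 0.03 for all genes, and -0.08 at 8 weeks, beside 0.00. Under quantile normalization the 2-week median turned to 0.06, with 23 members above 0 in place of 16. Signals of the members were bright: 26 of 36 representative probe sets lay in the brightest 10% of those tested, where 17.0% of all probe sets were called at 2 weeks (14.3% lower and 2.74% higher) and 20.1% at 8 weeks (10.7% lower and 9.40% higher). The shares of called members were 19.4% at 2 weeks and 13.9% at 8 weeks, over all 36 members, of which 10 lie in dimmer bins. Fewer cells of a type and less RNA per cell cannot be told apart in whole kidney. Markers of several kidney cell types differed between the diets as well. Of the proximal tubule markers 7 of 15 fell and 0 rose at 2 weeks, with summed signals of 38020 to 48378 on HSF, against 48727 to 54004 on ND. At 8 weeks 4 of 15 fell and 0 rose, with sums of 38646 to 46168 on HSF, against 40758 to 54918 on ND. Of 4 distal convoluted and connecting tubule markers 1 fell at 2 weeks and 3 fell at 8 weeks, Calb1, Slc8a1 and Klk1, with 8-week sums of 1976 to 3192 on HSF, against 2863 to 3587 on ND. Among collecting duct markers 6 of 9 rose and 1 fell at 2 weeks, and 4 rose and 1 fell at 8 weeks, with sums of 3270 to 3749 on HSF, against 2011 to 2391 on ND at 2 weeks, and of 2903 to 3820, against 2313 to 2847, at 8 weeks. Of 8 thick ascending limb markers 4 rose at 2 weeks and 2 at 8 weeks, and 0 fell, with sums of 8848 to 11123 on HSF, against 8197 to 9653 on ND at 2 weeks, and of 8510 to 10516, against 7799 to 9709, at 8 weeks. Of 8 macrophage and myeloid markers 0 were called at 2 weeks and 4 rose at 8 weeks (Cd68, C1qa, Lyz2 and Gpnmb), with 8-week sums of 2996 to 3992 on HSF, against 2394 to 2978 on ND. Of 6 smooth muscle and pericyte markers 1 rose at 2 weeks and 2 at 8 weeks, with 8-week sums of 806 to 999 on HSF, against 543 to 718 on ND. Sums include markers below the filter, so they cover 5 distal, 10 macrophage and myeloid, and 7 smooth muscle and pericyte genes. Bright genes weigh most in a sum. Mean Aqp2 signals were 1331 on HSF and 605 on ND at 2 weeks, and those of Lyz2 2465 and 1971 at 8 weeks. In the thick ascending limb, Umod was the brightest, at 5703 and 5773 at 2 weeks. No marker of these lists was at 0 on any array. The part of any of these lists in the member differences was not tested.

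**Figure D2:**
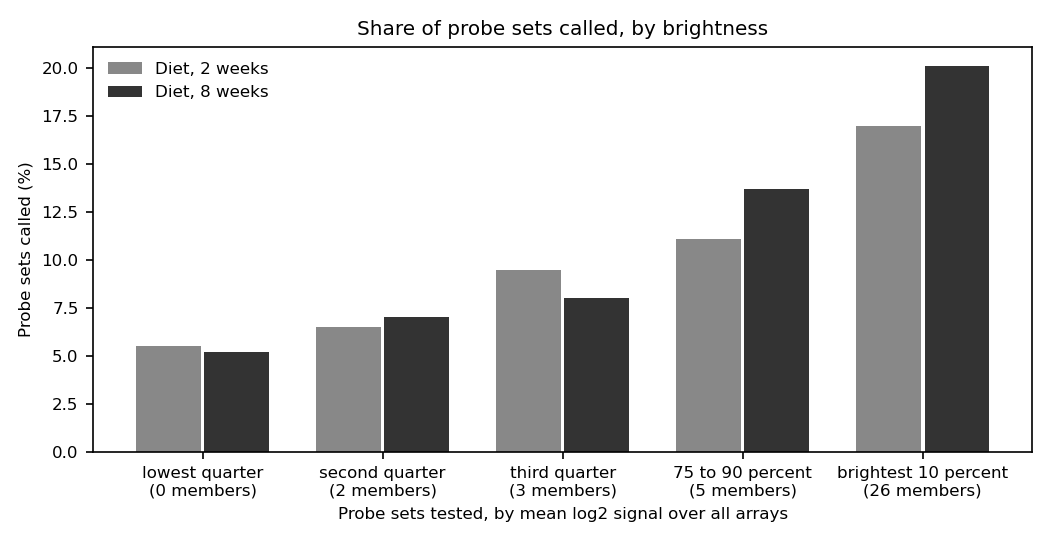
Percent of all probe sets called in the diet comparison at 2 weeks (grey) and 8 weeks (black), in bins of mean log2 signal from dim to bright, with the number of member genes in each bin. The share called is highest in the brightest 10%, at 17.0% and 20.1%, the bin that holds 26 of 36 members.

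Of 3 technical measures compared at each time, the GAPDH difference and the spike-in level differed at 2 weeks after adjustment over the 6 tests. The GAPDH control probe sets gave a 3' minus 5' log2 difference of 0.29 ± 0.11 on HSF and 0.12 ± 0.10 on ND at 2 weeks (SD, n = 6 each, exact permutation p = 0.0152, adjusted p = 0.0456 over 6 tests), and of 0.22 ± 0.11 and 0.21 ± 0.08 at 8 weeks (exact permutation p = 0.929). The same measure of the actin control was 0.59 ± 0.30 on HSF and 0.38 ± 0.13 on ND at 2 weeks (exact permutation p = 0.123), and 0.40 ± 0.12 and 0.50 ± 0.05 at 8 weeks (exact permutation p = 0.117). The mean log2 signal of 18 spiked bacterial control probe sets was 8.86 ± 0.20 on HSF and 9.16 ± 0.06 on ND at 2 weeks (exact permutation p = 0.00216, adjusted p = 0.013), and 9.10 ± 0.06 and 8.87 ± 0.24 at 8 weeks (exact permutation p = 0.0476, adjusted p = 0.0952). A fat index, the mean standardised log2 signal of the adipocyte genes Fabp4, Cfd and Car3, averaged -0.82 on HSF and 0.90 on ND at 2 weeks, and 0.08 and -0.15 at 8 weeks. The 8 adipocyte markers on the array had summed signals of 198 to 403 on HSF, against 437 to 4184 on ND at 2 weeks. Of these 6 were tested, with Lep and Plin1 below the filter. With the spike-in level as a covariate 2 members were called at 2 weeks, Pfkp and Sord, and with the fat index 3, Fbp1, Sord and Idh1. At 2 weeks the spike-in level did not overlap between the diets, at 8.57 to 9.07 on HSF and 9.08 to 9.23 on ND. Fabp4, Cfd and Car3 of the fat index were themselves called lower on HSF at 2 weeks. All 3 covariates thus go partly with diet at 2 weeks. For a 2-week call lost with one of them, diet and covariate cannot be told apart. At 8 weeks the spike-in level was higher on HSF, with ranges of 9.01 to 9.19 on HSF and 8.56 to 9.26 on ND. There too it goes partly with diet. With it as a covariate 4 members were called at 8 weeks, Fbp1, Eno1, Sord and Idh1, and Pfkp, Pgd and Slc37a4 were not.

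The promoters of 4 called members are shown because Pfkp rose and Sord and Idh1 fell at both times, and Fbp1 is the called enzyme that is particular to gluconeogenesis. Each runs from 250 bases before to 50 after the transcription start, from RefSeq on the rat assembly GRCr8: Pfkp at chr17:68639563-68639862, plus strand, Sord at chr3:129638418-129638717, plus strand, Idh1 at chr9:74049425-74049724, minus strand, and Fbp1 at chr17:2213457-2213756, plus strand. A promoter was found for 33 of the 36 members tested and for all 9 members called in a diet comparison. Capitals mark matches, on either strand, to the motifs searched, which were ACGTG (the core of the hypoxia response element), TGACG (a cyclic AMP response element half-site), CAAAG (an HNF4 half-site), GTTAAT (an HNF1 half-site) and CACGTG (the E-box, which overlaps the first of these).
Pfkp: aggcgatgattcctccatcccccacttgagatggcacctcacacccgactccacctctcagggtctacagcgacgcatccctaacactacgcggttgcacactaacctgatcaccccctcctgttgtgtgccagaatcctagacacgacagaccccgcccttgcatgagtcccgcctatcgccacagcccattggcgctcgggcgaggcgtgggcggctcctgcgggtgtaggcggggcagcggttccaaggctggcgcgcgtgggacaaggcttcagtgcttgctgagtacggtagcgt
Sord: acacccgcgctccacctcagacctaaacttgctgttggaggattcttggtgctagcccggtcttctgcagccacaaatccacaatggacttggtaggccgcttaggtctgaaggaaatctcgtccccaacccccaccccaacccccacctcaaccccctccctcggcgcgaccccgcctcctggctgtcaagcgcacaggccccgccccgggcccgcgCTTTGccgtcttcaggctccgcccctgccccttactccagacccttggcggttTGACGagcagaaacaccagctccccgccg
Idh1: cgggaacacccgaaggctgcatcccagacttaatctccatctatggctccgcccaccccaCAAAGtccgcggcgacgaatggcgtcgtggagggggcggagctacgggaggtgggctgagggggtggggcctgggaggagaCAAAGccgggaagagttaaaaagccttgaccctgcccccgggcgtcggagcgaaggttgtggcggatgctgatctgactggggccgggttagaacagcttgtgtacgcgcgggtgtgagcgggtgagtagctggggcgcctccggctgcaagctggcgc
Fbp1: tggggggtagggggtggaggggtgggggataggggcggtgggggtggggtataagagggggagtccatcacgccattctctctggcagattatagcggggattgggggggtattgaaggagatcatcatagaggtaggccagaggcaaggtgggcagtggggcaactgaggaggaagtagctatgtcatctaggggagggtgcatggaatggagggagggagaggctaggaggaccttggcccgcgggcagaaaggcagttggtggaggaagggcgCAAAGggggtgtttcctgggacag
The Pfkp window held 0 of the motifs. The Sord window held TGACG within the 50 bases after the start and the reverse complement of CAAAG before the start. The Idh1 window held CAAAG at 2 places, both before the start, and the Fbp1 window held CAAAG within the 50 bases after the start. Over all 33469 promoters of this length in the table, ACGTG was found in 19.3%, CACGTG in 6.42%, TGACG in 21.2%, CAAAG in 53.8% and GTTAAT in 7.45%. These matches describe letters only.

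Of 3 gluconeogenic members measured, 1 fell at each time, Fbp1 at 2 weeks and Slc37a4 at 8 weeks. The differences of all 3 were below 0 at both times. Fbp1, fructose bisphosphatase, which removes a phosphate from fructose bisphosphate, had signals of 3421, 3677 and 4495 on HSF, against 4506, 5015 and 5521 on ND at 2 weeks. The groups did not overlap, with every HSF animal below every ND animal. Fbp1 fell 1.32-fold at 2 weeks (-0.40 ± 0.08, adjusted p = 0.00274), and that call was lost with the spike-in level as a covariate (adjusted p = 0.101). At 8 weeks its signals were 3284, 3906 and 4149.7 on HSF, against 3662, 4342 and 4871 on ND, groups that overlapped. The 8-week difference was -0.17 ± 0.08 (adjusted p = 0.193). It was called under quantile normalization and with the spike-in level as a covariate (lowest adjusted p = 0.0389).

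Slc37a4 encodes the carrier that brings glucose phosphate into the endoplasmic reticulum, where glucose is released. Its signals were 853, 1001 and 1145 on HSF, against 1154, 1201 and 1348 on ND at 8 weeks. All HSF animals lay below all ND animals. Slc37a4 fell 1.23-fold at 8 weeks (-0.29 ± 0.08, adjusted p = 0.0141), and was not called without HSF array 1 (adjusted p = 0.0503) or with the spike-in level as a covariate (adjusted p = 0.0786). At 2 weeks it had 983, 1046 and 1134 on HSF, against 1066, 1222 and 1394 on ND (-0.19 ± 0.08, adjusted p = 0.11). Pck1, cytosolic phosphoenolpyruvate carboxykinase, a main control point of the route, had 2583, 3749 and 4411 on HSF, against 4011, 4296 and 5062 on ND at 2 weeks (-0.26 ± 0.09, adjusted p = 0.0835). Its 8-week difference was -0.11 ± 0.09 (adjusted p = 0.528). Neither Pck1 difference was called, and in both comparisons 5 of 6 HSF animals lay below the ND median. The 2-week Pck1 difference was called with array weights and without HSF array 4 or HSF array 6 (lowest adjusted p = 0.0323).

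Pc, pyruvate carboxylase, feeds oxaloacetate to Pck1. It lies outside the member rule by its spelling. Its signals were 465, 521 and 587 on HSF, against 557, 654 and 897 on ND at 2 weeks, and 319.6, 404 and 460, against 451, 573 and 716, at 8 weeks. The groups overlapped at both times. Pc fell 1.30-fold at 2 weeks (-0.38 ± 0.11, adjusted p = 0.031) and 1.44-fold at 8 weeks (-0.52 ± 0.11, adjusted p = 0.00272). The 2-week call was lost without any 1 of ND arrays 1, 3 and 6 or HSF arrays 2, 3 and 6 (-0.43 to -0.30 over all arrays left out), and in 4 of 16 other settings, array weights and each of the 3 covariates (adjusted p up to 0.217), whereas the 8-week call held in each of 16 other settings and 24 omissions. Pc was also lower at 8 than at 2 weeks on HSF (-0.40 ± 0.11, adjusted p = 0.0404).

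**Figure D3:**
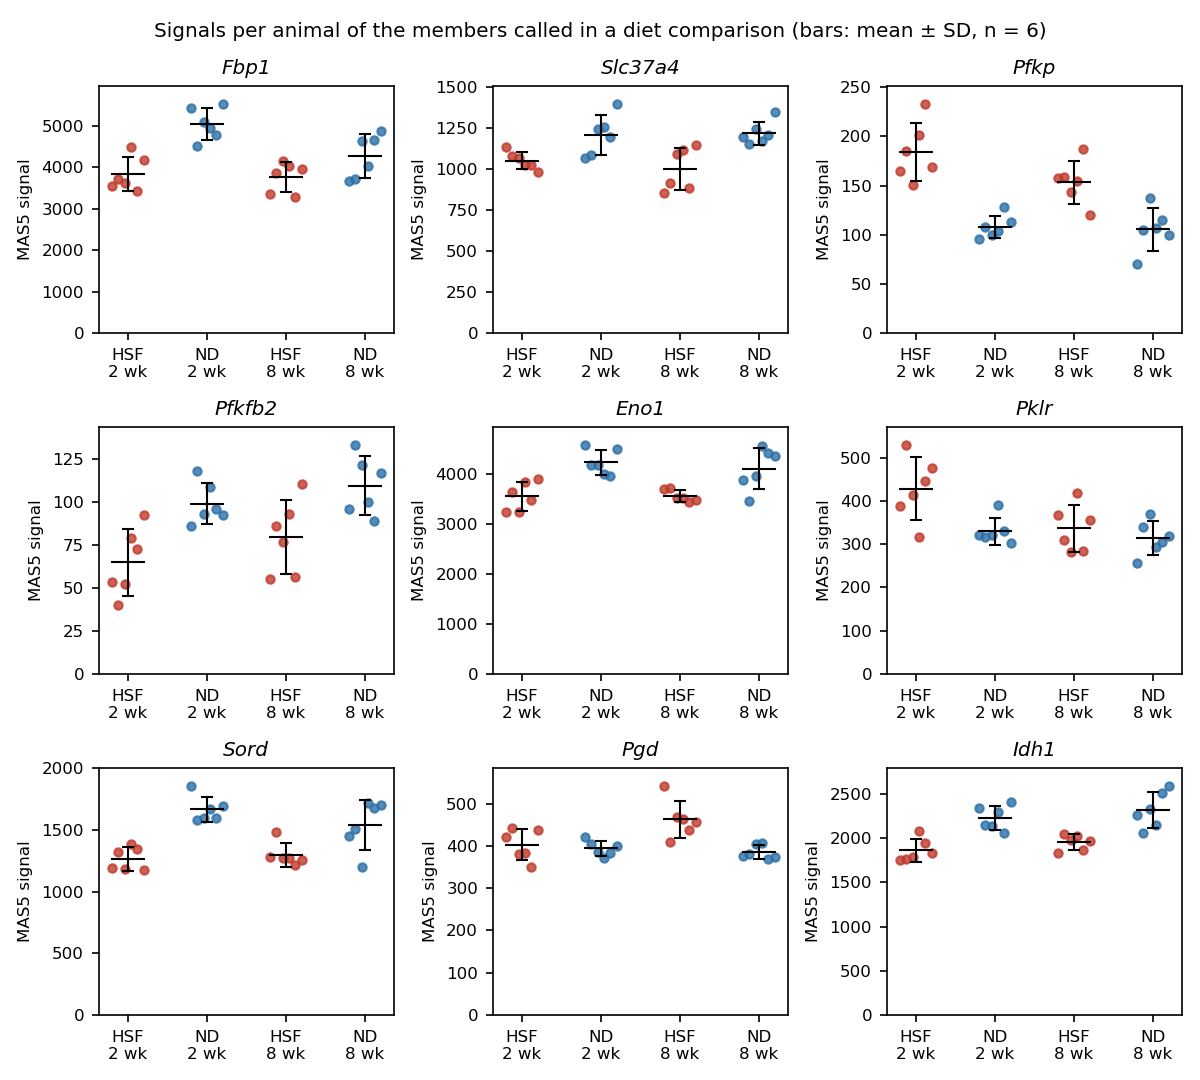
MAS5 signals of the 9 members called in a diet comparison, 1 point per animal, with the mean ± SD of 6 animals in black; HSF in red and ND in blue, at 2 and 8 weeks, linear axes from 0. Fbp1, Pfkp, Eno1 and Sord at 2 weeks, and Slc37a4, Idh1 and Pgd at 8 weeks, separate the diets with no overlap.

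Neither of the 2 members of glucose uptake and phosphorylation that were tested, Slc2a1 and Hk1, was called. Slc2a1, a facilitative glucose transporter of the distal and medullary tubule and of blood cells, had 138, 166 and 221 on HSF, against 109, 127 and 161 on ND at 2 weeks (0.38 ± 0.13, adjusted p = 0.0718). Every HSF animal was above the ND median, yet the groups overlapped. Hk1, the hexokinase that commits glucose to metabolism in most cells, had 272, 308 and 363 on HSF, against 229, 266 and 289.6 on ND (0.24 ± 0.10, adjusted p = 0.145). At 8 weeks Slc2a1 differed by 0.13 ± 0.13 and Hk1 by 0.21 ± 0.10, with adjusted p = 0.594 and 0.217. Slc2a1 was called at 2 weeks with array weights, without ND arrays 1 and 2 at 8 weeks or without ND array 3 at 2 weeks (lowest adjusted p = 0.0426). Hk2, the insulin-regulated hexokinase, was dim, at 5.30 to 54.2 over all arrays, and was not tested. The 3 hexokinase array controls carry the Hk1 symbol and were left out of the tests as controls. Mean signals of these controls (3', 5' and middle) were 75.25, 28.7 and 104 on HSF, against 54.3, 26.9 and 70.1 on ND at 2 weeks. At 8 weeks the means were 71.9, 41.7 and 114 on HSF, against 62.75, 28.3 and 64.1 on ND. Only the 5' control at 8 weeks separated the diets with no overlap.

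In upper glycolysis 2 of 7 members measured were called at 2 weeks, in opposite directions, and 1 at 8 weeks. Pfkp encodes the platelet form of phosphofructokinase, the enzyme of the committed step. Its signals were 150.4, 177 and 233 on HSF, against 95.8, 106 and 128 on ND at 2 weeks. All 6 HSF animals lay above all 6 ND animals. At 8 weeks it had 120, 156 and 187 on HSF, against 70.0, 105 and 137 on ND, and the groups overlapped. Pfkp rose 1.65-fold at 2 weeks (0.72 ± 0.12, adjusted p = 0.000387) and 1.44-fold at 8 weeks (0.53 ± 0.12, adjusted p = 0.00677). It was called without each of the 24 arrays at both times. The 2-week call was lost with the fat index as a covariate (adjusted p = 0.0611), and the 8-week call with the spike-in level (adjusted p = 0.0652).

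The other forms of phosphofructokinase were not called. Pfkl, the liver form, had 148, 175 and 204 on HSF, against 105, 139 and 191 on ND at 2 weeks (0.28 ± 0.14, adjusted p = 0.218) and differed by 0.06 ± 0.14 at 8 weeks. Pfkm, the muscle form, differed by 0.07 ± 0.08 and -0.10 ± 0.08, with 95% intervals of -0.09 to 0.22 at 2 weeks and -0.25 to 0.06 at 8 weeks. Its other probe set gave -0.02 and -0.0045. Whether the forms differ from each other in response was not tested.

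Pfkfb2 encodes a bifunctional enzyme that makes and removes the bisphosphate that activates phosphofructokinase. Its signals were 40, 63.2 and 92.3 on HSF, against 86.4, 94.7 and 118 on ND at 2 weeks. Every HSF animal lay below the ND median, with overlap at the edges of the groups. Pfkfb2 fell 1.51-fold at 2 weeks (-0.60 ± 0.16, adjusted p = 0.0199). At 8 weeks it had 55.1, 81.5 and 110.4 on HSF, against 89.0, 109 and 133 on ND (-0.45 ± 0.16, adjusted p = 0.079). The probe set is dim, with a coefficient of variation of 30% on HSF at 2 weeks, the highest among the members, and the other 3 probe sets of Pfkfb2 were below the filter. The 2-week call was lost without any 1 of ND array 2 and HSF arrays 2 and 3, and with each of 3 covariates (GAPDH difference, fat index, spike-in level). Gpi, Aldoa and Tpi1, which carry out the reversible steps, differed by 0.10, 0.01 and -0.0030 at 2 weeks, and by -0.0075, 0.16 and -0.03 at 8 weeks, none of them called. Pfkfb1 and Aldoc were dim, at 2.8 to 74.6 and 3.3 to 12.4 over all arrays.

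In lower glycolysis 2 of 6 members measured were called at 2 weeks, again in opposite directions, and 0 at 8 weeks. Eno1, the enolase of most tissues, had 3234, 3563 and 3907 on HSF, against 3957, 4182 and 4577 on ND at 2 weeks. The groups did not overlap. Eno1 fell 1.19-fold (-0.25 ± 0.06, adjusted p = 0.0144). At 8 weeks it had 3433, 3524 and 3717 on HSF, against 3471, 4162 and 4554 on ND (-0.20 ± 0.06, adjusted p = 0.0517), just short of a call. The 2-week call was lost under quantile normalization and with either the spike-in level or the fat index as covariate, and the 8-week difference was called in 6 of 16 other settings. Eno2, the neuronal enolase, was dim, at 3.3 to 54.9.

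Pklr, the pyruvate kinase of liver, kidney and red cells, had 317, 429.6 and 528 on HSF, against 302, 321 and 390.4 on ND at 2 weeks. Of 6 HSF animals 5 lay above the ND median. Pklr rose 1.28-fold (0.36 ± 0.11, adjusted p = 0.0393). Its dimmer probe set 1387263_at gave 60.2, 85.0 and 108 on HSF, against 30.5, 48.6 and 60.1 on ND, with no overlap (0.79 ± 0.19, adjusted p = 0.0104). At 8 weeks the brighter probe set differed by 0.09 ± 0.11 (adjusted p = 0.657) and the dimmer by 0.23 ± 0.19 (adjusted p = 0.514). The call of the brighter probe set was lost in 8 of 16 other settings and without any 1 of ND arrays 1, 2, 3, 5 and 6 or HSF arrays 2, 3, 5 and 6 (0.29 to 0.44 over all arrays left out). The call of the dimmer one was lost with each of the 3 covariates and without 0 of the arrays.

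Lactate dehydrogenase genes were not called. Ldha, whose subunit favours lactate formation, had 886, 1067 and 1201 on HSF, against 793, 941 and 1175 on ND at 8 weeks (0.16 ± 0.08, adjusted p = 0.2). Ldhb, whose subunit favours lactate use, had 2087, 2446 and 2629 on HSF, against 2468, 2717 and 2861 on ND (-0.16 ± 0.06, adjusted p = 0.113), with every HSF animal below the ND median. At 2 weeks their differences were 0.03 ± 0.08 and -0.08 ± 0.06. Pgk1 and Pgam1 differed by -0.07 and -0.04 at 2 weeks, and by -0.11 and -0.05 at 8 weeks. The second Pgk1 probe set tested went the other way at 2 weeks (0.08), also without a call.

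Sord, sorbitol dehydrogenase, which turns sorbitol into fructose, fell at both times and on both of its probe sets. The brighter probe set had 1173, 1258 and 1388 on HSF, against 1586, 1635 and 1856 on ND at 2 weeks. The dimmer one, 1369635_at, had 757, 991 and 1317 on HSF, against 1397, 1449 and 1675 on ND. Neither pair of groups overlapped. The falls at 2 weeks were 1.32-fold (-0.40 ± 0.08, adjusted p = 0.0013) and 1.49-fold (-0.58 ± 0.10, adjusted p = 0.000707). At 8 weeks the brighter probe set had 1216, 1274 and 1483 on HSF, against 1197, 1593 and 1719 on ND, and the dimmer 896, 1147 and 1228, against 1248, 1399 and 1672. The dimmer separated the diets with no overlap. The falls at 8 weeks were 1.18-fold (-0.24 ± 0.08, adjusted p = 0.0436) and 1.30-fold (-0.38 ± 0.10, adjusted p = 0.0202). Both 2-week calls held under every alternative tried. At 8 weeks the call of the brighter probe set was lost in 6 of 16 other settings and without any 1 of ND arrays 1, 2, 4, 5 and 6 or HSF arrays 1, 3, 4, 5 and 6 at 8 weeks or ND arrays 3 and 4 at 2 weeks (-0.31 to -0.21 over all arrays left out), and that of the dimmer without ND arrays 1 and 2 together, without any 1 of ND array 6 and HSF arrays 1 and 5, and with the spike-in level.

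Aldose reductase, the gene Akr1b1, makes the sorbitol that Sord consumes, and is no member. It moved the other way: its signals were 221, 636 and 880 on HSF, against 133, 149 and 167 on ND at 2 weeks, and 254, 368 and 602, against 92.5, 142 and 156, at 8 weeks. Neither pair of groups overlapped. Akr1b1 rose 3.63-fold (1.86 ± 0.22, adjusted p = 3.76e-06) and 2.76-fold (1.46 ± 0.22, adjusted p = 5.68e-05). Khk, which phosphorylates fructose, differed by 0.07 ± 0.09 at 2 weeks and -0.10 ± 0.09 at 8 weeks, with 95% intervals of -0.11 to 0.25 and -0.28 to 0.08. Ugp2, which makes UDP-glucose, differed by 0.20 ± 0.11 and -0.08 ± 0.11 and was not called.

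Gpd1, cytosolic glycerol phosphate dehydrogenase, links glycolysis to glycerolipids, and its 2 probe sets differed in size of change. The brighter had 839, 956 and 998 on HSF, against 1017, 1039.8 and 1260.2 on ND at 2 weeks (-0.19 ± 0.08, adjusted p = 0.122). The dimmer, 1369560_at, had 136, 244 and 312 on HSF, against 321, 369.6 and 442 on ND (-0.71 ± 0.14, adjusted p = 0.0013). Every HSF animal lay below every ND animal on both, and the dimmer one alone was called. That call was lost with the fat index or the GAPDH difference as a covariate. At 8 weeks the differences were -0.15 ± 0.08 and -0.17 ± 0.14, neither called.

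**Figure D4:**
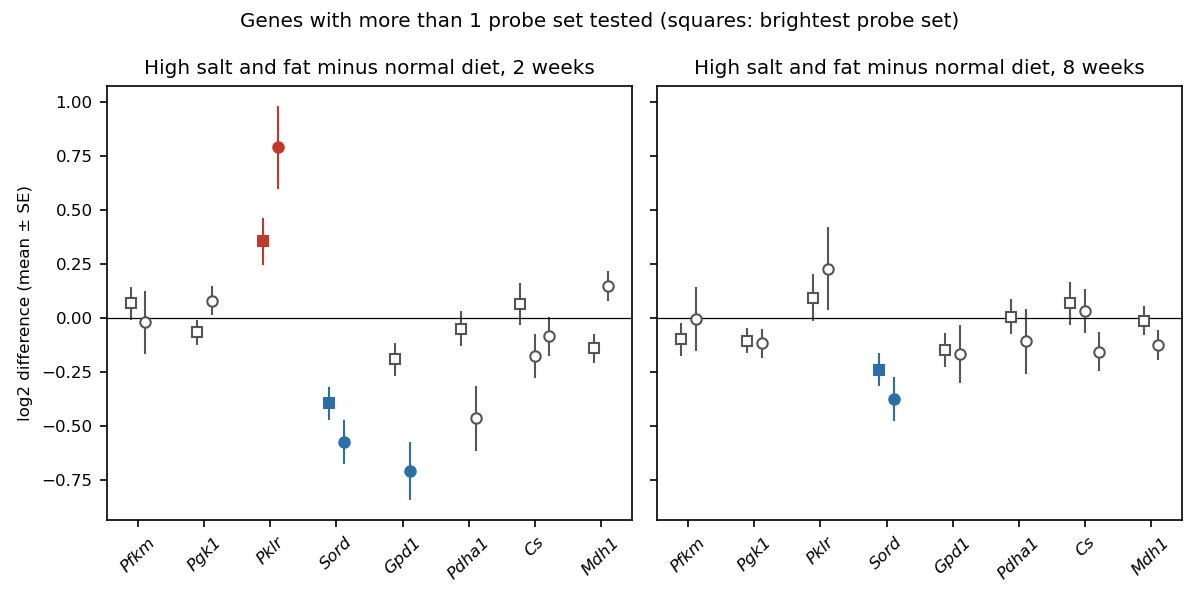
Log2 difference of signal ± SE, HSF minus ND, for each tested probe set of the 8 member genes with more than 1, at 2 weeks (left) and 8 weeks (right); squares are the brightest probe set of a gene and filled points were called (red higher, blue lower). Both Sord probe sets lie below 0 at both times, whereas those of Mdh1 lie on either side of 0 at 2 weeks.

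Of 3 pentose phosphate members, Pgd was called at 8 weeks. Pgd, phosphogluconate dehydrogenase, is an NADPH-producing enzyme of the oxidative branch. Its signals were 410, 461 and 541 on HSF, against 368, 379 and 406 on ND. All HSF animals lay above all ND animals, the nearest at 410 on HSF and 406 on ND. Pgd rose 1.20-fold (0.26 ± 0.07, adjusted p = 0.0147), and was not called without HSF array 1 (adjusted p = 0.0536), without ND arrays 1 and 2 together, or once the spike-in level was a covariate. At 2 weeks it had 350, 402 and 443 on HSF, against 371, 393 and 420 on ND (0.03 ± 0.07, 95% interval -0.11 to 0.16). The diet difference at 8 weeks exceeded that at 2 weeks by 0.23 ± 0.09, which was not called (interaction adjusted p = 0.328). Tkt, transketolase of the non-oxidative branch, had 611, 695 and 748 on HSF, against 478, 588 and 656 on ND at 8 weeks (0.24 ± 0.10, adjusted p = 0.121), with every HSF animal above the ND median. At 2 weeks it differed by 0.08 ± 0.10. Taldo1, transaldolase, differed by -0.17 ± 0.09 at 2 weeks and -0.08 ± 0.09 at 8 weeks.

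Pyruvate dehydrogenase members were not called by their brightest probe sets. Dld, the dihydrolipoamide dehydrogenase subunit that the complex shares with oxoglutarate dehydrogenase, had 540.3, 577 and 684 on HSF, against 663, 711 and 807 on ND at 2 weeks (-0.27 ± 0.09, adjusted p = 0.0549). Every HSF animal lay below the ND median. The 2-week Dld difference was called in 2 of 16 other settings and without any 1 of 5 arrays (lowest adjusted p = 0.0264). At 8 weeks Dld differed by -0.18 ± 0.09 (adjusted p = 0.211). Pdha1, the catalytic alpha subunit, differed by -0.05 ± 0.08 at 2 weeks on its brighter probe set. The dimmer 1383698_at differed by -0.47 ± 0.15 at 2 weeks (adjusted p = 0.0527). Its signals were 351, 823 and 881 on HSF, against 886, 1022 and 1105 on ND, with no overlap. At 8 weeks the brighter probe set of Pdha1 differed by 0.0051 and the dimmer by -0.11, neither called. Pdhb, the beta subunit, differed by -0.05 ± 0.08 at 2 weeks and -0.03 ± 0.08 at 8 weeks.

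In the citrate cycle 1 of 8 members measured was called at each time, and it was Idh1 both times. Idh1 encodes the NADP-linked isocitrate dehydrogenase of cytosol and peroxisomes, which stands beside the cycle rather than in it. Its signals were 1756, 1812 and 2077 on HSF, against 2058, 2223 and 2412 on ND at 2 weeks, and 1833, 1978 and 2054, against 2057, 2299.8 and 2588, at 8 weeks. The groups overlapped narrowly at 2 weeks and did not overlap at 8 weeks. Idh1 fell 1.20-fold at 2 weeks (-0.26 ± 0.06, adjusted p = 0.00697) and 1.18-fold at 8 weeks (-0.24 ± 0.06, adjusted p = 0.0132). The 8-week call held in all 16 other settings and all 24 omissions of an array, whereas the 2-week call was lost under quantile normalization and with the spike-in level.

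The mitochondrial isocitrate dehydrogenases were not called. Idh2, the NADP-linked form, differed by -0.01 ± 0.08 at 2 weeks and -0.11 ± 0.08 at 8 weeks, with 95% intervals of -0.17 to 0.15 and -0.27 to 0.05. Idh3a, a subunit of the NAD-linked form, differed by 0.14 ± 0.09 and -0.08 ± 0.09. Cs, citrate synthase, had differences of 0.06, -0.18 and -0.08 on its 3 probe sets at 2 weeks, on both sides of 0. Ogdh, the oxoglutarate dehydrogenase, and Suclg1, the alpha subunit of succinyl-CoA ligase, differed by -0.01 ± 0.09 and -0.12 ± 0.08 at 2 weeks, and by -0.17 ± 0.09 and -0.15 ± 0.08 at 8 weeks. Mdh2, mitochondrial malate dehydrogenase, had 1139, 1212 and 1408 on HSF, against 1016, 1089.7 and 1182 on ND at 2 weeks (0.19 ± 0.07, adjusted p = 0.0664). Every HSF animal was above the ND median. That difference was called under quantile normalization, with array weights and without HSF array 6 (lowest adjusted p = 0.0146). At 8 weeks Mdh2 differed by -0.02 ± 0.07. Mdh1, the cytosolic form, differed by -0.14 ± 0.07 on its brighter probe set and by 0.15 ± 0.07 on the dimmer 1372790_at at 2 weeks (adjusted p = 0.201 and 0.194). The 2 Mdh1 probe sets thus gave opposite signs, neither of them called.

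The diet differences at 2 and 8 weeks, which share no arrays, had the same sign for 29 of 36 members (80.6%), of which 19 were lower at both times and 10 higher. Over all 7493 genes the share was 65.7%. Across the 36 members Pearson's r between the times was 0.80 and Spearman's rho 0.78, against 0.47 and 0.46 across all genes. Genes are not independent replicates, and these values only describe the tables. The shares over all genes are not matched for brightness, and 26 of 36 members lie in the brightest 10%. The signs also depend on scaling. Under quantile normalization 23 members were above 0 at 2 weeks and 13 at 8 weeks, in place of 16 and 11. No member was called for the interaction of diet and time (0 of 36, beside 0.414% of all genes and 0.382% of probe sets). An unadjusted p under 0.05 was reached by 2 of 36 members and by 826 of all 7493 genes. The smallest adjusted p was 0.328, for Pgd. Members called at 2 weeks alone, such as Fbp1, are therefore not shown to differ from their 8-week values: the Fbp1 interaction was 0.22 ± 0.12 (adjusted p = 0.475) and that of Pklr -0.26 ± 0.15 (adjusted p = 0.533).

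By its brightest probe set, no member was called for time on either diet. On HSF, limma called 0 of 36 at 8 against 2 weeks, beside 3.51% of all genes and 3.53% of probe sets. An unadjusted p under 0.05 was reached by 9 of 36 members, 1 of them higher and 8 lower, and by 1227 of all 7493 genes. Ldhb was nearest, with 2087, 2446 and 2629 at 8 weeks, against 2480.4, 2859.8 and 3063 at 2 weeks (-0.21 ± 0.06, adjusted p = 0.0656), followed by Pklr (-0.34 ± 0.11, adjusted p = 0.0822) and Pgd (0.20 ± 0.07, adjusted p = 0.0966). The dimmer probe set of Mdh1, 1372790_at, was called, with 354, 384 and 425 at 8 weeks, against 445, 510.1 and 564 at 2 weeks (-0.38 ± 0.07, adjusted p = 0.00191). Its groups did not overlap, whereas the brighter probe set differed by 0.03. On ND, 0 of 36 were called, beside 0.0534% of all genes and 0.0392% of probe sets. An unadjusted p under 0.05 was reached by 2 of 36 members and by 653 of all 7493 genes. The 2 members were Fbp1 (-0.25 ± 0.08, adjusted p = 0.369) and Gpd1 (-0.21 ± 0.08, adjusted p = 0.426).

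Of 101 further genes of these pathways 76 were tested. At 2 weeks 4 rose and 9 fell (17.1% called, median -0.04), and at 8 weeks 3 rose and 7 fell (13.2% called, median -0.10), against 8.62% and 9.49% of all genes called. These shares are not matched for brightness. Among the brightest 10% of probe sets 17.0% and 20.1% were called. Among 8 glucose and monocarboxylate transporters, 1 rose and 3 fell at 2 weeks and 1 fell at 8 weeks. Slc5a2, the sodium-glucose cotransporter that reclaims most filtered glucose in the early proximal tubule, had 320.1, 467 and 556 on HSF, against 578, 737 and 892 on ND at 8 weeks, with no overlap. It fell 1.63-fold (-0.71 ± 0.13, adjusted p = 0.000569), and at 2 weeks 1.35-fold (-0.43 ± 0.13, adjusted p = 0.0312). The 2-week call of Slc5a2 was lost with each of the 3 covariates and without any 1 of ND arrays 1, 3 and 6 or HSF arrays 2, 3, 5 and 6. Slc16a1, a lactate and pyruvate transporter, had 251, 450.2 and 801 on HSF, against 634, 729 and 783 on ND at 2 weeks (-0.75 ± 0.19, adjusted p = 0.0138). One HSF animal stood above all ND animals and the other 5 stood below them.

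Of 9 genes of pyruvate dehydrogenase control and pyruvate carriage, 2 fell at each time. These were Pdk4 and Pdp2 at 2 weeks, and Pdk2 and Pdp2 at 8 weeks. Pdk2 and Pdk4 are kinases that inactivate the complex. Pdp2, a phosphatase that activates the complex, had 178, 193 and 291 on HSF, against 233, 292 and 379 on ND at 8 weeks (-0.54 ± 0.12, adjusted p = 0.00546), and fell at 2 weeks as well (-0.39 ± 0.12, adjusted p = 0.043). The 2-week call of Pdp2 was lost without any 1 of 10 of the 12 arrays of that time, all but ND array 3 and HSF array 4, and with no filter, eBayes without trend, the fat index or the GAPDH difference. Its 8-week call was lost without ND arrays 1 and 2 together (adjusted p = 0.0689) and with the spike-in level. Of 16 further citrate cycle, carrier and malic enzyme genes, 2 fell and 0 rose at 2 weeks, and 3 fell and 0 rose at 8 weeks, with 13 and 15 of 16 below 0. Suclg2, the GTP-forming beta subunit of succinyl-CoA ligase, had 1535, 1703 and 1743 on HSF, against 1816, 1975 and 2269 on ND at 2 weeks with no overlap (-0.25 ± 0.06, adjusted p = 0.00628). Slc25a10, the mitochondrial dicarboxylate carrier, had 1078, 1241 and 1352 on HSF, against 1372, 1518 and 1792 on ND at 8 weeks, again with no overlap (-0.33 ± 0.08, adjusted p = 0.00839). That call was lost with the spike-in level as a covariate (adjusted p = 0.0529). Slc25a11, the oxoglutarate carrier, also fell (-0.28 ± 0.06, adjusted p = 0.00406). In the list of other glycolysis and gluconeogenesis genes 1 of 11 fell at each time. Glud1, glutamate dehydrogenase, was the one at 2 weeks (-0.28 ± 0.07, adjusted p = 0.0123), and its other probe set gave -0.04 without a call. The 2-week calls of Suclg2, Glud1, Slc16a1 and Pygb were each lost with the fat index as a covariate. Those of Suclg2, Glud1 and Pygb were also lost with the spike-in level, and those of Glud1, Slc16a1 and Pygb with the GAPDH difference. Glud1 further lost its call under quantile normalization and with the mean of its probe sets.

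Of 12 polyol, fructose and glycogen genes, 2 rose and 0 fell at each time, Akr1b1 and Pygb. Pygb, the brain form of glycogen phosphorylase, had 173, 184 and 228 on HSF, against 117, 134 and 178 on ND at 2 weeks (0.47 ± 0.12, adjusted p = 0.0149), and rose by 0.49 at 8 weeks (adjusted p = 0.0104). Of 6 further pentose phosphate genes 0 were called at either time. Among 14 transcriptional regulators, 1 rose and 1 fell at 2 weeks, and 1 rose at 8 weeks. Hnf4a, a regulator of gluconeogenic and other proximal tubule genes, had 178, 247 and 280.4 on HSF, against 306, 379.5 and 403 on ND at 2 weeks on its dimmer probe set 1382496_at (-0.57 ± 0.12, adjusted p = 0.00282). That probe set was also called at 8 weeks (-0.38 ± 0.12, adjusted p = 0.0438), whereas the brighter one gave -0.74 ± 0.13 at 2 weeks (adjusted p = 0.000558) and -0.22 ± 0.13 at 8 weeks (adjusted p = 0.311). Myc, a growth regulator, had 48.0, 81.0 and 113 on HSF, against 21.3, 40.8 and 49.6 on ND at 8 weeks (0.96 ± 0.23, adjusted p = 0.00928), and was not called without ND arrays 1 and 2 together (adjusted p = 0.0533).

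**Figure D5:**
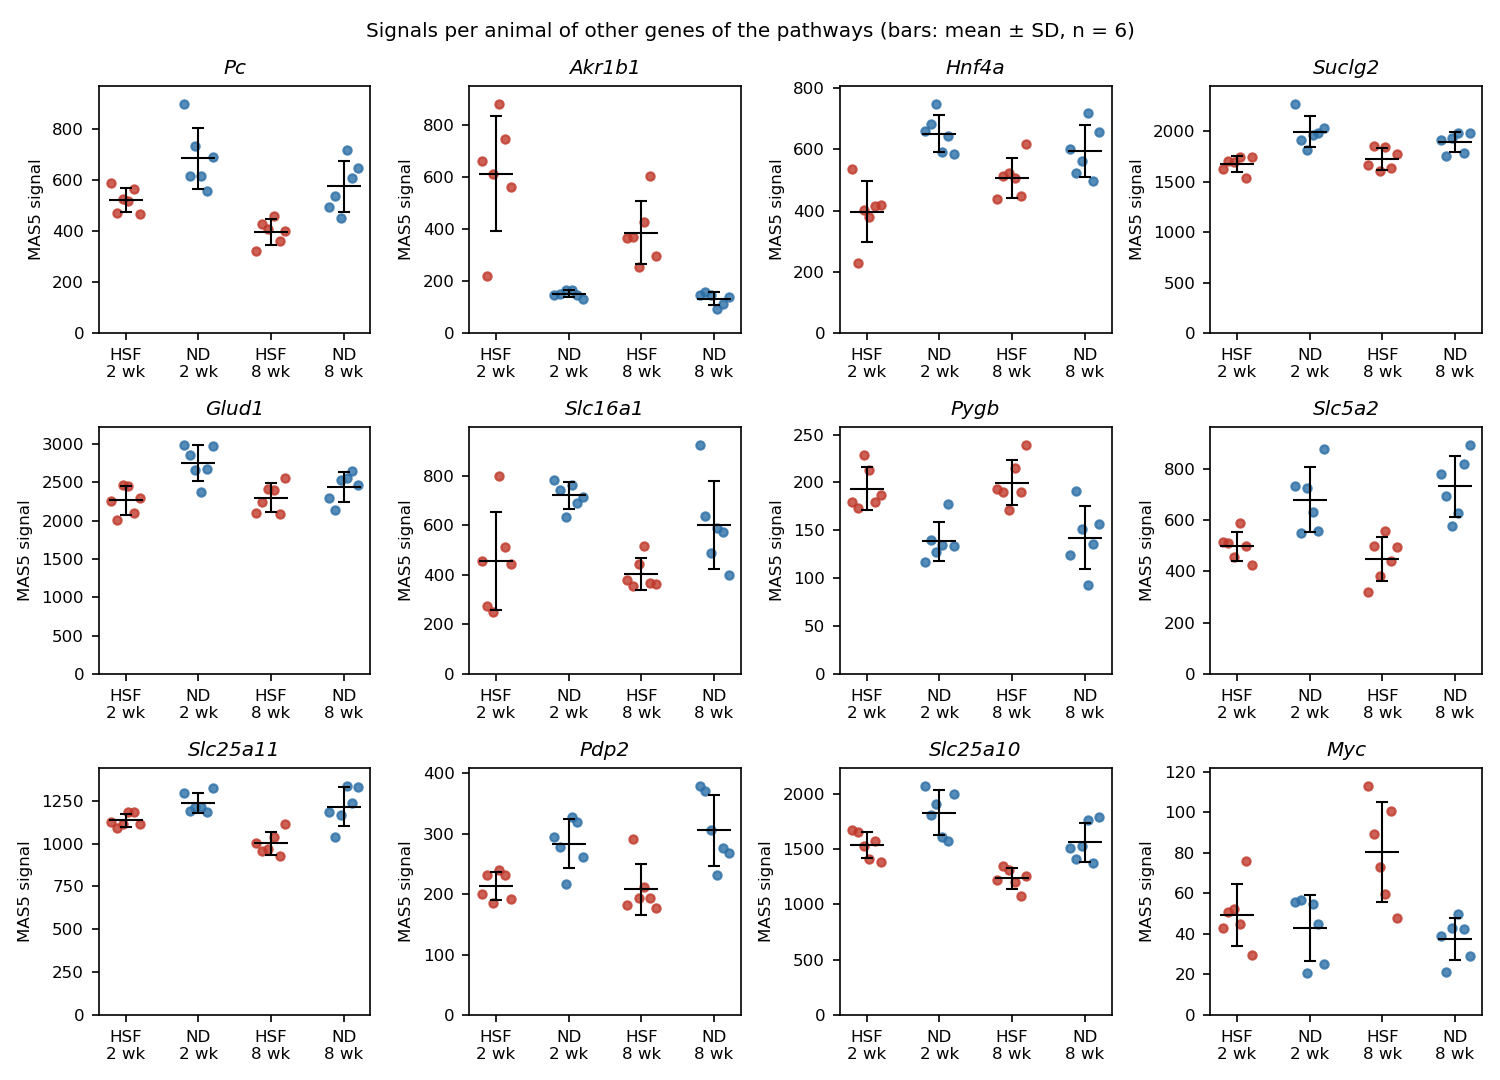
MAS5 signals of Pc and of 11 other genes of the same pathways, 1 point per animal, with the mean ± SD of 6 animals in black; HSF in red and ND in blue, at 2 and 8 weeks, linear axes from 0. Akr1b1 separates the diets at both times, and Slc5a2 and Slc25a10 do so at 8 weeks.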

How the data were processed

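Whole-kidney RNA of 24 SHR-SP rats was hybridised to Affymetrix rat arrays, 1 array per animal. The authors deposited intensity values on a linear scale, MAS5 signals per the submitters' processing notes; the MAS5 version, scaling target and detection calls are not given in the sources used here. Trimmed means of the deposited values were 149.954 to 150.455, so all arrays share a scale. Array controls were left out of the tests. Tests used log2(signal + 7.2), where 7.2 is 0.1 of the typical array median, and the values were not normalized again. The filter kept 10208 probe sets of 7493 genes, those that in at least 6 of 24 arrays exceeded that array's 40th percentile (44.5 to 54.5).

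Group means over all 24 arrays were fitted with limma 3.58.1 in R 4.3.3 (eBayes with trend), two-sided, with Benjamini-Hochberg adjustment over all probe sets tested. The number of arrays limits the precision. The fit was tested on simulated data. No pair of arrays was a duplicate (at most 0.716% identical values). The labels give 1 replicate number per array in each group, with no statement that it pairs animals. A gene was named if it is a member called in a diet comparison, described by its group values, with the other members given by range and count; of the further pathway genes the 6 of smallest p in each diet comparison were named. Mdh1, Pfkl, Slc2a1, Dld, Tkt and other members that were not called are described beyond that rule, chosen after their values were seen. Pdk2 and Pdk4 are named beyond it too, because they were called beside Pdp2. Members, gene lists and the alternative settings were chosen with earlier results of these data known. The alternatives were other pseudocounts, scalings, filters, variance models, array weights, covariates, the replicate number as a block, and leaving out arrays.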

Additional observations from a re-analysis of the deposited data

Results flagged for a closer look

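Of 144 groups of 6 signals of the members' brightest probe sets, 10 had a sample whose gap to its nearest neighbour exceeded the 95% critical share of the group's range in Dixon's test for 6 samples. Chance alone flags about 1 in 20 groups, so 10 is near that rate. On HSF at 2 weeks, Ldha had 1082.7 in replicate 6, against 924.3 to 952.9 in the other animals. On ND at 2 weeks, Pklr had 390.4 in replicate 4 (others 302.5 to 330.8), Gpd1 had 1260.2 in replicate 1 (others 1017.2 to 1072.3), Idh3a had 457.8 in replicate 1 (others 330.6 to 375.3), and Tkt had 429.5 in replicate 3 (others 633.7 to 706). On HSF at 8 weeks, Sord had 1483.4 in replicate 2 (others 1216.3 to 1285.6), Cs had 926.2 and Ogdh 1621 in replicate 6 (others 640.5 to 741.7 for Cs and 1189.7 to 1345.9 for Ogdh), and Idh3a had 282.7 in replicate 3 (others 375 to 407.4). On ND at 8 weeks, Pdhb had 670.5 in replicate 1 (others 863.5 to 939.4). The Sord animal is the HSF animal nearest to ND at 8 weeks, and the Pklr animal the ND animal nearest to HSF at 2 weeks. No member's diet difference differed between the times by the interaction test.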

How the results depend on the processing

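The 12 member differences called kept their sign under 16 other settings and 24 omissions of an array, and of 60 not called 22 changed sign at least once, the largest of them 0.141 in size. Members called at 2 weeks were 3 with the fat index and 2 with the spike-in level as a covariate, in place of 7, and at 8 weeks 9 under quantile normalization, in place of 5. On HSF over time, where 0 were called, quantile normalization gave 2, array weights 1 and the mean of a gene's probe sets 1. Probe sets called at 2 weeks, 892, were 232, 314 and 482 with the fat index, the GAPDH difference and the spike-in level. At 8 weeks, 933 became 542 without ND arrays 1 and 2 and 497 with the spike-in level. For the interaction, 39 became 80 with array weights and 13, 4 and 0 with the 3 covariates. Over time on HSF, 360 became 632 with array weights and 223 in a fit of only the groups compared. Over time on ND, 4 became 2 with centred arrays, 9 without ND arrays 1 and 2, and 0 in the fits without trend, of only the groups compared and with each covariate. The cause of these shifts was not tested.

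Leaving out 1 array gave 598 to 986 probe sets and 5 to 8 members at 2 weeks, 543 to 1120 and 2 to 6 at 8 weeks, 22 to 50 for the interaction, 220 to 507 and 0 to 2 members over time on HSF, and 0 to 10 over time on ND. At 8 weeks HSF array 1 (543 probe sets and 2 members without it) and HSF array 5 (579) decided most; over time on HSF these were HSF array 5 at 8 weeks (220) and HSF array 3 at 2 weeks (233). For the interaction it was HSF array 3 at 8 weeks (22), and over time on ND the small counts moved by over 1.5 times with 11 of 12 ND arrays left out in turn, up to 10 without ND array 1 at 8 weeks. Of single-gene values under alternatives, 6581 kept their side of the threshold, 114 lost a call and 55 gained one. Brightness limits what can be tested: 4 members were too dim, and Pfkfb2, a dim member, had a coefficient of variation of 30% on HSF at 2 weeks. With the replicate number as a block, 892, 922 and 41 probe sets were called at 2 weeks, at 8 weeks and for the interaction, with 6, 5 and 0 members. Pklr at 2 weeks was the member lost. The numbers are not shown to pair animals: deviations of same-numbered arrays had a median correlation of 0.015 (-0.147 to 0.162), and 4 of 24 arrays correlated best with their own number.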
